A study of Mus musculus with 24 samples.

Results

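Full RNase digestion of liver RNA depleted of small RNAs was examined by comparing 3 microRNA (miRNA) arrays of RNA treated with 0.67 U RNase with 3 arrays of the same RNA incubated with 0 U RNase, 6 of the 24 arrays of the study. The arrays were chosen by the dose given in the sample descriptions and by the RNA integrity number (RIN), which falls as RNA is degraded. Liver was taken from 3 mice, called 7, 10 and 9 in the labels, and each mouse gave 1 array per group. All of this RNA came from unstored (0 h) tissue, was isolated with the RNeasy kit and DNase digestion, and was hybridized untreated in a further 3 arrays. For digestion, 3 µg were incubated for 30 min at 37 °C with 0, 0.026 or 0.67 U RNase and isolated again with the miRNeasy kit, so that the 0 U arrays share the incubation and the second isolation with the digested ones. The strain, sex and age of the animals are not in the labels of these samples; the study's text describes male mice. The RIN was 9.0, 9.1 and 9.2 at 0 U in mice 7, 10 and 9, and 2.9, 2.6 and 2.4 at 0.67 U.

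For mouse 9 (replicate 3) the labels contradict each other. The array described as 0.67 U, with a RIN of 2.4, carries a title and an RNase field that name 0.026 U, and the array described as 0.026 U, with a RIN of 6.0, carries a title and an RNase field that name 0.67 U. The descriptions, which the extraction protocol and the RIN match, were followed here, and results are also given without mouse 9.

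MiRNAs are RNAs of about the length of the sequences below, cut from a hairpin precursor whose arms are named 5p and 3p. The seed, bases 2 to 8 of the mature miRNA, guides it to its targets. On the array used here, fluorescent dye is joined to the 3′ end of every RNA in the sample, and the labelled RNA is hybridized to probes for known miRNAs. An RNA fragment that binds a probe therefore gives a signal under the name of that miRNA, and a value below is a fluorescence signal under a name. The deposited signal of a detected miRNA counts only those of its probes that were detected on that array, so at low levels it can rest on different numbers of probes in different arrays.

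Mature sequences are shown for the miRNAs on which the results turn, from RefSeq (GRCm38.p6), with the seed in capitals. Among the largest increases with 0.67 U RNase were 4 with unrelated seeds.
mmu-miR-494-3p: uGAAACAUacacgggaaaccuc
mmu-miR-7036a-5p: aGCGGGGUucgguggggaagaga
mmu-miR-135a-1-3p: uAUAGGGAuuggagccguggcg
mmu-miR-1224-5p: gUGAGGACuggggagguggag
Both arms of the miR-652 and miR-125a hairpins are shown because their signals parted.
mmu-miR-652-5p: cAACCCUAggagggggugccauuc
mmu-miR-652-3p: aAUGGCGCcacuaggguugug
mmu-miR-125a-5p: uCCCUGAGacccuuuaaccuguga
mmu-miR-125a-3p: aCAGGUGAgguucuugggagcc
Members of 2 seed groups are shown because they share the seed and differed in their change, first the seed of miR-125 and then that of miR-130.
mmu-miR-125b-5p: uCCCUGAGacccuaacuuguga
mmu-miR-6394: uCCCUGAGuggggccaggucu
mmu-miR-130a-3p: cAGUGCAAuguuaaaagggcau
mmu-miR-721: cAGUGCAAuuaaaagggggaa
A pair of abundant miRNAs without a call completes the set.
mmu-let-7a-5p: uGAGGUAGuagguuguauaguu
mmu-miR-21a-5p: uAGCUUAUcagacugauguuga

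Digestion raised the number of miRNAs that gave a signal. At 0 U, 204, 238 and 203 of the 1881 miRNAs on the array were detected in mice 7, 10 and 9, and at 0.67 U the numbers were 317, 403 and 349. Each digested array lay above all 0 U arrays. Digested arrays averaged 356 ± 43.5 (SD, n = 3) and those without RNase 215 ± 19.9 (SD, n = 3), which lies 141 lower (exact permutation, two-sided p = 0.1, the least that is possible with 3 arrays per group). Within a mouse the number rose by 113 to 165, and without mouse 9 the difference was 139. Before incubation, the untreated arrays gave 230, 192 and 186 detected miRNAs, overlapping with the 0 U arrays and below each digested array.

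The total signal of the detected miRNAs rose further. It was 7125, 10043 and 8699 intensity units at 0 U in mice 7, 10 and 9 and 83451, 168514 and 70313 at 0.67 U. On the log2 scale the difference was 3.54, between 3.01 and 4.07 in single mice and 3.81 without mouse 9 (two-sided p = 0.1 by exact permutation, again the least possible). A single name, mmu-miR-494-3p, held most of the signal after digestion. Its share was 4.02%, 6.26% and 2.77% of the total at 0 U and 62.6%, 60.7% and 60.1% at 0.67 U. With mmu-miR-494-3p left out, the total still rose by 2.25 on the log2 scale. At 0 U the brightest name on each array was mmu-miR-122-5p, the main miRNA of hepatocytes, with 27.8%, 31.0% and 39.7% of the signal, and at 0.67 U it held 3.26%, 3.02% and 6.54%.

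**Figure D1:**
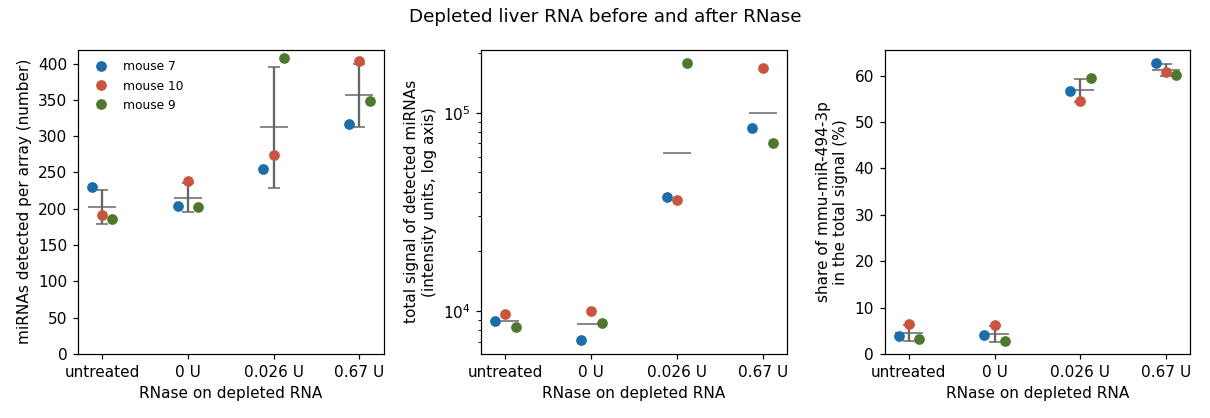
Number of detected miRNAs, total signal (log axis) and share of mmu-miR-494-3p on each array of depleted RNA, by RNase dose, with 1 point per mouse. Horizontal marks are means (on the log scale in the middle panel) and bars are SD (n = 3). The 0.67 U arrays lie at 317 to 403 detected miRNAs and above 60% for mmu-miR-494-3p, and the 0.026 U array of mouse 9 lies apart from the other 0.026 U arrays.

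Of the 1881 miRNAs, 186 were detected on all 3 arrays at 0 U and 315 on all 3 at 0.67 U. There were 178 detected on every array of both groups and 91 detected on none at 0 U and on all 3 at 0.67 U. No miRNA went from 3 arrays to none. The 8 that were detected on all 3 arrays at 0 U and on fewer at 0.67 U had signals of at most 4.86 intensity units at 0 U. Of the 91 gained miRNAs, 88 were also undetected on the 3 untreated arrays of depleted RNA.

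The miRNAs were then compared singly by limma on the glog2 scale. Tested were the 631 miRNAs with a detected signal in 5 or more of the 24 arrays. This is a log2 scale at high signals, but it is steep around 0, so changes of dim miRNAs are not log2 folds. The signal of mmu-miR-7016-5p, undetected in both groups, was -1.68, -1.10 and -1.43 at 0 U and -0.945, 0.115 and -0.508 at 0.67 U. Its change was 3.82, against 2.08 for mmu-miR-467f, whose signals rose from 7.04, 15.3 and 5.88 to 41.8, 101 and 37.9. A call needs a Benjamini-Hochberg adjusted p under 0.05 and a change of at least 1. At 0.67 U, 283 miRNAs (44.8%) were called higher than at 0 U and 3 (0.475%) lower. All 283 were higher in each of the 3 mice, and the lowest raw signal at 0.67 U lay above the highest at 0 U for 273 of them, against 355 of all 631 (56.3%). Every probe was higher in all 3 mice for 262 of the 283, and also for 125 of the 345 miRNAs without a call. Without mouse 9, 262 (41.5%) were higher, 258 of them among the 283, and 1 (0.158%) was lower. When the signals of all probes of a miRNA were summed on every array, 288 were higher, 282 of them among the 283, and 1 was lower.

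How the calls divide depends on the scaling between arrays. The median change over the 631 miRNAs was 0.90 with the values used here, 1.37 when the arrays were scaled to the spike-in controls and -0.51 when vsn was fitted on the 631 miRNAs alone. Under spike-in scaling the split was 296 higher and 1 lower. Scaling to the 75th percentile of the miRNAs detected on all arrays gave 271 and 188, to that of all miRNAs 285 and 88, quantile normalization 230 and 162, vsn on the 631 miRNAs 178 and 242, normexp background correction 48 and 30, and testing all 1881 miRNAs 353 and 43. The normexp values also had an offset of 50 added and were quantile normalized, so their counts do not show background correction alone. For comparison, the median detected signal was 5.38, 6.15 and 5.09 at 0 U and 10.5, 13.1 and 8.29 at 0.67 U. The higher calls are therefore given below together with the raw signals, and the absence of change in other miRNAs is relative to the scaling.

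Of the 283 raised miRNAs, 69 were detected on all arrays of both groups, 87 on none at 0 U and all 3 at 0.67 U, and 31 on 1 or 2 arrays at 0 U and all 3 at 0.67 U. A further 41 were detected on 1 or 2 arrays at 0.67 U, and 55 on no array of either group, so that their calls rest on signals below the detection level.

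**Figure D2:**
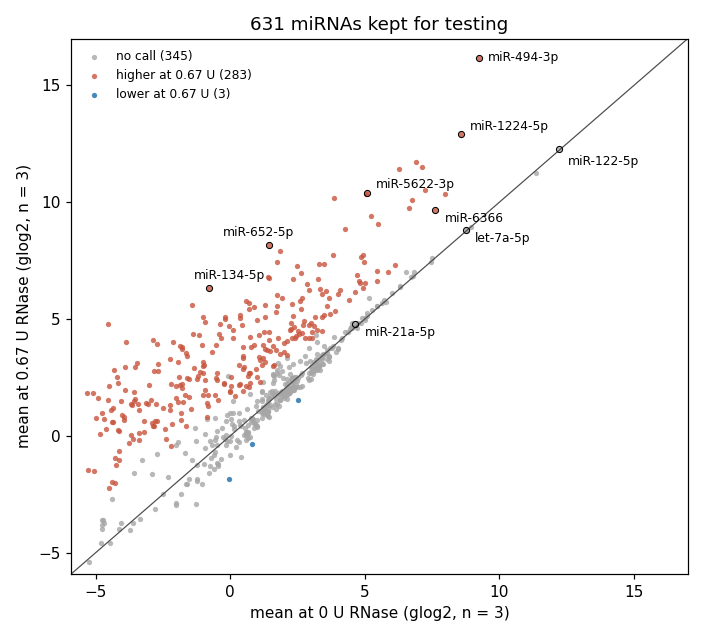
Mean glog2 value of each of the 631 tested miRNAs at 0 U (horizontal) and at 0.67 U (vertical), n = 3 arrays each, with the line of equality. Red marks the 283 miRNAs called higher, blue the 3 called lower and grey the 345 without a call. The grey points lie along the line up to mmu-miR-122-5p, while the red points spread upwards from it at all levels.

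Among miRNAs detected on all 6 arrays, mmu-miR-494-3p, which comes from the imprinted Dlk1-Dio3 miRNA cluster, rose most. Its signal was 287, 628 and 241 intensity units at 0 U in mice 7, 10 and 9 and 52249, 102286 and 42227 at 0.67 U. The groups were far apart, and within the mice the raw signal was 182, 163 and 175 times higher after digestion. This was a glog2 change of 6.96 (SE 0.485, limma adjusted p = 1.90e-09), and of 6.86 without mouse 9. Both of its probes rose in all 3 mice, from at most 421 to at least 16356 intensity units.

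The next largest increases were in mmu-miR-7036a-5p, with signals of 5.30, 13.9 and 6.15 intensity units at 0 U and 814, 1753 and 585 at 0.67 U, a change of 6.32 (SE 0.505). In mmu-miR-135a-1-3p, the 3p arm of a miR-135a hairpin, signals rose from 0.732, 3.51 and 0.672 to 176, 329 and 125, a change of 6.05 (SE 0.596). With all of its probes summed on every array the 0 U signals were 2.04, 4.30 and 1.70, and the change was 5.42. No value at 0 U reached the lowest value at 0.67 U for either miRNA. The signal of mmu-miR-1224-5p, which is made from an intron by splicing and not by Drosha (a mirtron), went from 175, 401 and 160 to 5199, 11344 and 4436, a change of 4.36 (SE 0.60). Its groups did not overlap. The other 6 of the 10 largest increases, mmu-miR-6908-5p, mmu-miR-5622-3p, mmu-miR-6769b-5p, mmu-miR-3960, mmu-miR-211-3p and mmu-miR-125a-3p, changed by 4.36 to 5.33. With all probes summed, mmu-miR-125a-3p changed by 3.94. For mmu-miR-3960 the raw signal rose 56.8-fold and 68.0-fold in mice 7 and 10 and 16.6-fold in mouse 9. All 10 remained called higher without mouse 9.

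MiRNAs without any detected signal at 0 U also became bright. The signal of mmu-miR-652-5p was 0.625, 1.36 and 0.630 intensity units at 0 U, below detection on every array, and 169, 418 and 182 at 0.67 U. It was at least 193-fold higher after digestion, a lower bound that sets the dim arrays at their lowest detected signal after scaling (limma adjusted p = 1.90e-09). In the same way mmu-miR-1306-3p was at least 62.5-fold higher (limma adjusted p = 4.93e-07), with signals of 76.5, 181 and 54.7 at 0.67 U. From the same imprinted cluster as miR-494, mmu-miR-134-5p was at least 60.6-fold higher (limma adjusted p = 9.04e-07), with 37.3, 152 and 45.9 at 0.67 U. The 0.67 U signals of these miRNAs were highest in mouse 10 and closer to each other in mice 7 and 9. The bounds of the other 5 gained miRNAs chosen by size, mmu-miR-3547-5p, mmu-miR-7045-5p, mmu-miR-6240, mmu-miR-3472 and mmu-miR-721, lay between 32.1-fold and 36.2-fold. All 8 were called higher without mouse 9.

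**Figure D3:**
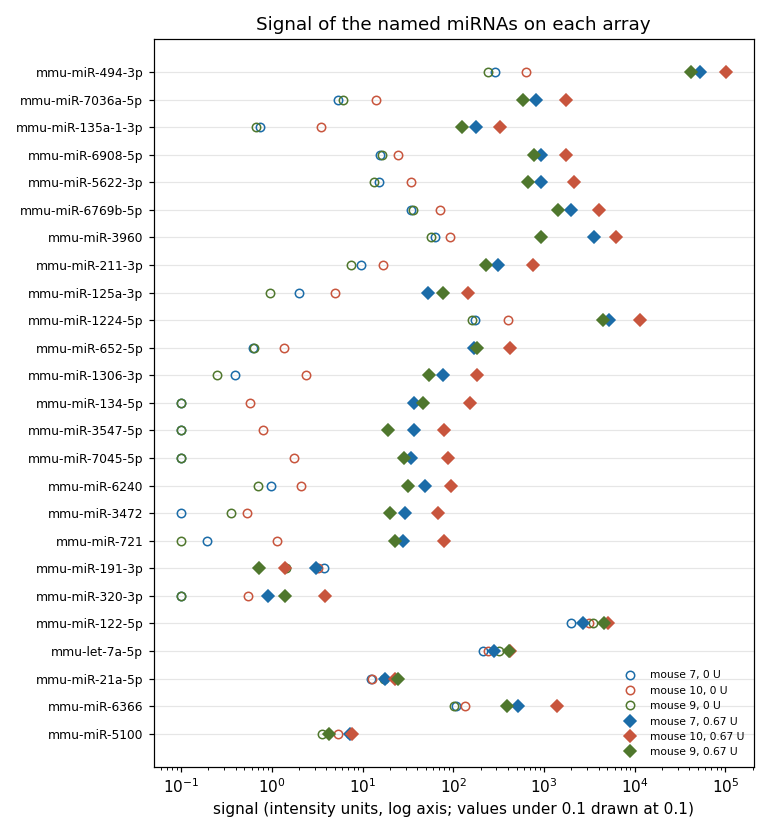
Signal of the named miRNAs on each array (log axis, intensity units), open circles for 0 U and filled diamonds for 0.67 U, coloured by mouse. Values under 0.1 are drawn at 0.1, and mmu-miR-219a-5p and mmu-miR-466h-5p, with signals below 0, are not drawn. The filled diamonds lie apart from the open circles for the raised miRNAs and overlap with them for mmu-miR-5100, mmu-let-7a-5p and mmu-miR-122-5p.

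The 3 miRNAs called lower were dim. The deposited signal of mmu-miR-191-3p was 3.81, 3.25 and 1.45 intensity units at 0 U and 3.08, 1.39 and 0.721 at 0.67 U, overlapping groups with a change of -1.01 (SE 0.395, limma adjusted p = 0.0420). These values rest on different numbers of probes. With all probes summed on every array it gave 3.81, 3.25 and 2.78 without RNase against 3.08, 4.77 and 2.83 after digestion, and the call was lost (change -0.36). Neither mmu-miR-219a-5p nor mmu-miR-466h-5p was detected on any of the 6 arrays, and mmu-miR-466h-5p also lost its call with all probes summed. Without mouse 9 mmu-miR-219a-5p alone remained called lower.

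The abundant liver miRNAs that were still measured in the depleted RNA did not pass the test. The signal of mmu-miR-122-5p was 1982, 3116 and 3452 intensity units at 0 U and 2719, 5083 and 4599 at 0.67 U, with overlapping groups and a change of 0.05 (SE 0.487, limma adjusted p = 0.967). In RNA that kept its small RNAs it was 6767, 12125 and 11368 at 0 h, so depletion lowered the signal and did not remove it. For mmu-miR-21a-5p, an abundant miRNA of many cell types, the signal was 12.5, 12.8 and 17.1 at 0 U and 17.8, 22.8 and 24.6 at 0.67 U, a change of 0.13 (SE 0.367). The groups did not overlap in raw signal, but the difference was small beside that of the raised miRNAs.

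Of the 10 hepatocyte and liver miRNAs listed, all were tested and none was called (background 44.8% higher). Their median change was 0.05, against 0.90 over all 631 miRNAs, and their summed signal ranged from 2144 to 3648 at 0 U and from 2940 to 5413 at 0.67 U. The sign of this median turned with the scaling: it was 0.38 with the spike-ins and 0.53 without normalization, but -1.40 at the 75th percentile of the miRNAs detected on all arrays, where 9 of the 10 were called lower, and -1.77 under quantile normalization, where 8 were, and it was also below 0 at the 75th percentile of all miRNAs (-0.89), with vsn on the 631 miRNAs (-1.01), with normexp (-1.15), by the titles (-0.11), and without mouse 7 (-0.063) or mouse 9 (-0.078). Relative to the median of all miRNAs it lay between -2.34 and -0.50 under these and the other normalizations of the 631 miRNAs. That contrast rests on the filter. Over all 1881 miRNAs, of which 18.8% were called higher, the median was -0.17, and the liver list lay 0.22 above it.

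The 9 members of the let-7 family (5p arms), a conserved family that restrains growth and development genes, behaved alike. None was called (background 44.8% higher), and the median change was 0.08. The signal of mmu-let-7a-5p was 212, 243 and 320 at 0 U and 283, 425 and 411 at 0.67 U, a change of 0.05 (SE 0.596), and mmu-let-7b-5p gave 221, 326 and 337 at 0 U and 284, 494 and 441 at 0.67 U. Their groups overlapped. As for the liver list, the median turned to -1.37 at the 75th percentile of the miRNAs detected on all arrays, with all 9 called lower, and to -1.91 under quantile normalization, with 7, and was below 0 at the 75th percentile of all miRNAs (-0.87), with vsn on the 631 miRNAs (-0.96), with normexp (-1.65), by the titles (-0.099) and without mouse 7 (-0.0046).

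Markers of other cell types gave little signal in either group. Over all 631 miRNAs 44.8% were called higher. None of 3 erythroid and 6 endothelial and stromal miRNAs tested was called. Their summed signals ranged from 7.38 to 9.79 intensity units at 0 U and from 13.9 to 20.2 at 0.67 U for the erythroid list, and from 18.8 to 28.3 and from 28.9 to 49.9 for the endothelial and stromal list. The immune list summed to between 4.84 and 6.24 at 0 U and between 4.88 and 13.6 at 0.67 U. These calls moved with the scaling. With the spike-ins 1 of the 3 erythroid miRNAs was called higher. With vsn on the 631 miRNAs 2 erythroid, 4 endothelial and stromal and 4 immune miRNAs were called lower. The part of these cell types in the results was not tested. The signal of mmu-miR-451a, a red cell miRNA, was 5.43, 4.99 and 6.16 at 0 U and 7.62, 8.42 and 8.54 at 0.67 U. Of 5 immune miRNAs tested, mmu-miR-155-5p was called higher (change 1.18, SE 0.477, limma adjusted p = 0.0484), with 1 detected array of the 6, while mmu-miR-223-3p, the granulocyte miRNA, changed by -0.32 (SE 0.342).

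The raised miRNAs were spread unevenly over the numbers in miRNA names, which rise broadly with the time of naming. Of the 141 tested miRNAs numbered below 300 (with let-7), 19 were higher (13.5%), of the 124 from 300 to below 1000, 50 (40.3%), of the 40 from 1000 to below 3000, 24 (60%), and of the 326 numbered 3000 and above, 190 (58.3%). The median changes were 0.05, 0.51, 1.72 and 1.97. These medians rest on the filter, which keeps miRNAs detected on at least 5 arrays, digested ones included. Over all 1881 miRNAs the medians were -0.24, -0.30, 0.04 and -0.04, and the shares called higher 8.58%, 12.8%, 23% and 25.1%. Without mouse 9 the shares were 14.2%, 37.1%, 57.5% and 53.1%. The number of detected miRNAs numbered 3000 and above went from 99.3 ± 14.0 (SD, n = 3) without RNase to 189 ± 29.6 (SD, n = 3) after digestion (two-sided p = 0.1 by exact permutation). That of miRNAs below 300 was 70 ± 4 (SD, n = 3) without RNase and 81.3 ± 8.96 (SD, n = 3) after digestion (two-sided p = 0.2 by exact permutation).

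**Figure D4:**
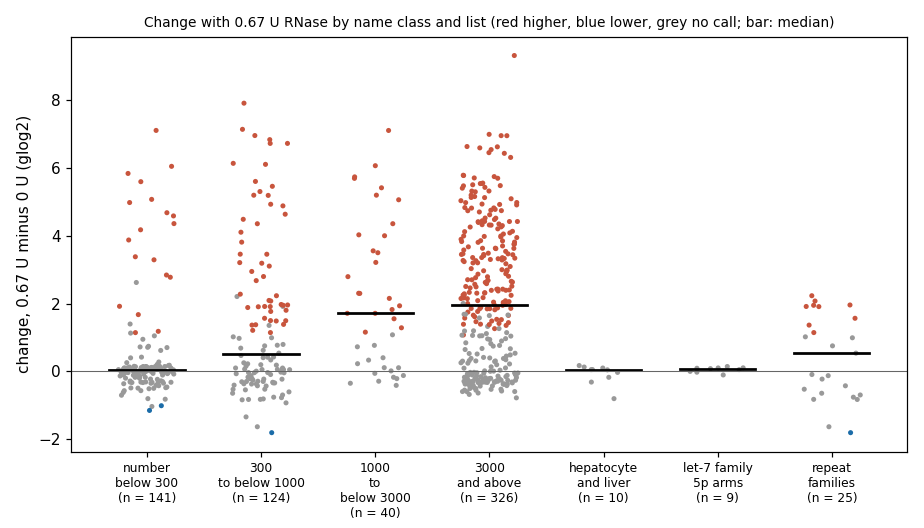
Change of each tested miRNA, 0.67 U minus 0 U (glog2), by the number in its name and for 3 lists, with 1 point per miRNA and a bar at the median. Red points were called higher, blue lower. The medians are 0.05, 0.51, 1.72 and 1.97 for the name classes, and the liver and let-7 members lie close to 0 under this scaling.

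The 19 raised miRNAs numbered below 300 included mmu-miR-211-3p (9.56, 16.7 and 7.38 intensity units at 0 U and 312, 759 and 228 at 0.67 U), mmu-miR-149-3p and mmu-miR-125a-3p. For all 3 the 5p arm is the one usually called the mature miRNA. Both arms of a hairpin were tested in 87 cases. In these, both arms were higher in 8, only the 5p arm in 40, only the 3p arm in 16 and neither in 23. Over all tested miRNAs the 5p arms were also higher more often, 143 of 275 (52%) against 57 of 228 3p arms (25%). When the difference between the arms was itself tested (limma on the 5p value minus the 3p value of each array), the arms differed in 56 hairpins (64.4%), with the larger increase in the 5p arm in 40 and in the 3p arm in 16. Of the 56 hairpins with 1 raised arm, 51 passed this test, and 45 without mouse 9.

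The hairpin of miR-652 is an example. While mmu-miR-652-5p rose as described above, the signal of mmu-miR-652-3p was 4.26, 9.62 and 5.29 at 0 U and 5.58, 14.6 and 7.17 at 0.67 U, a change of -0.04 (SE 0.498). The arms differed by 6.77 (SE 0.598, limma adjusted p = 2.45e-08). In the miR-125a hairpin the order was the other way. The signal of mmu-miR-125a-3p rose from 1.98, 4.94 and 0.951 to 52.3, 147 and 77.3, whereas mmu-miR-125a-5p gave 7.70, 20.6 and 10.5 at 0 U and 11.6, 38.6 and 14.2 at 0.67 U. Here the 5p arm changed less by 4.22 (SE 0.638, limma adjusted p = 8.45e-06).

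Members of a seed group could differ. Of the 34 seeds held by at least 2 tested miRNAs with a sequence, every member was higher in 8 and no member in 16. Over all tested miRNAs 44.8% were higher, and whether calls go with the seed was not tested. Of the 3 miRNAs with the miR-125 seed, mmu-miR-125a-5p and mmu-miR-125b-5p had no call, and mmu-miR-6394 rose from below detection to 5.57, 15.4 and 4.08 intensity units (change 5.51, SE 0.804). Likewise mmu-miR-130a-3p gave 8.55, 12.1 and 13.9 at 0 U and 12.5, 19.9 and 19.4 at 0.67 U (change 0.08, SE 0.342), while mmu-miR-721, with the same seed, rose from below detection to 27.9, 78.7 and 22.7 (change 4.64, SE 0.588). In the sequences printed above, both raised members differ from their partners after the seed.

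The raised miRNAs had mature sequences rich in guanine. A sequence was matched for 1608 of the 1881 miRNAs and for 526 of the 631 tested. The median guanine content was 45.5% in the 237 raised miRNAs with a sequence, 33.3% in the 526 and 22.7% in the 287 without a call. Over all 1608 sequences it was 26.3%. The G and C content together differed less, with medians of 62.5%, 58.3% and 52.4%, and the median length was 22 bases in each set. By length, 47.8% of tested miRNAs of up to 21 bases were higher, 38.8% of 22, 42.7% of 23 and 72.7% of 24 to 26. A run of GGG was present in 181 of the 237 raised miRNAs (76.4%), in 56 of the 287 without a call (19.5%) and in 489 of all 1608 sequences (30.4%), searched on the miRNA strand only.

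Divided into 4 classes of guanine content, 9 of 133 tested miRNAs with up to 21.7% were higher (6.77%), 33 of 135 between 22.7% and 33.3% (24.4%), 89 of 146 between 34.6% and 45.5% (61%) and 106 of 112 with 46.2% or more (94.6%). This order was kept under each normalization tried and without each mouse, and without mouse 9 the shares were 6.02%, 25.2%, 54.1% and 89.3%. All these shares are of tested miRNAs, which could pass the filter through digested or stored arrays. The shares over all miRNAs of each guanine class were not computed. Across the 526 miRNAs Pearson's r between the change and guanine content was 0.64 and Spearman's rho 0.72, against -0.39 and -0.42 for cytosine content. For uracil content they were -0.40 and -0.45, for adenine -0.015 and -0.0017, and for purines (adenine and guanine together) 0.56 and 0.63. These describe miRNAs on the same arrays, which are not independent replicates, and the base composition of probe and miRNA go together.

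**Figure D5:**
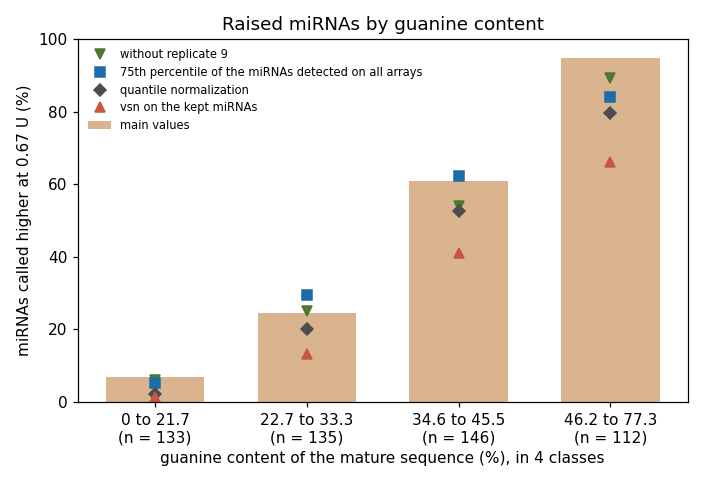
Share of tested miRNAs called higher at 0.67 U in 4 classes of the guanine content of the mature sequence, with the number of miRNAs under each bar. Bars show the values used here and symbols 4 alternatives. The share rises from 6.77% to 94.6% in the bars and in the same order under each alternative shown.

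The order held within the name classes. Among tested miRNAs numbered 3000 and above, 18 of 106 with at most 33.3% guanine were higher (17%) and 146 of 178 with more (82%). Among those below 300 the numbers were 8 of 99 (8.08%) and 10 of 26 (38.5%). It held between the arms of a hairpin too: in 42 hairpins whose arms differed by the test and had both sequences, the arm with the larger increase held more guanine in 39. The largest increase of all miRNAs detected on every array was an exception, since mmu-miR-494-3p has 18.2% guanine and lies in the lowest class. The hairpin of miR-652 was another, with 33.3% guanine in the raised 5p arm and 38.1% in the 3p arm.

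The miR-297, miR-466, miR-467 and miR-669 families, whose members lie in simple repeats, had 61 members on the array and 25 tested. There were 9 called higher (36%), below the 44.8% of all tested miRNAs, and 1 lower. The order against all miRNAs turned with the filter and the scaling. Among miRNAs detected on all 3 arrays of a compared group, 8 of 9 members were higher (88.9%), against 58.8% of all. With the spike-ins the share was 48%, against 46.9% of all. Over all 1881 miRNAs it was 7 of 61 members (11.5%), against 18.8%. The counts of members called higher and lower also moved with the scaling. They were 12 and 0 with the spike-ins, 8 and 0 at the 75th percentile of all miRNAs, 2 and 1 at that of the miRNAs detected on all arrays, again 2 and 1 when quantile normalized, 2 and 12 after vsn of the 631 miRNAs, and 0 and 0 after normexp. The raised members were 3p arms and arms without a name, apart from mmu-miR-466i-5p. The signal of mmu-miR-467f went from 7.04, 15.3 and 5.88 to 41.8, 101 and 37.9, a change of 2.08 (SE 0.452), and that of mmu-miR-466h-3p from 5.10, 13.2 and 4.21 to 36.4, 87.4 and 33.8, a change of 2.24 (SE 0.475). The groups did not overlap for either, and mmu-miR-467f holds no guanine in its sequence. Without mouse 9, 7 members were called higher, and without mouse 7, 5.

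MiRNAs that are made without Drosha behaved differently from each other. The mirtron arm mmu-miR-877-5p rose from below detection to 0.887, 6.68 and 0.880 intensity units (change 3.46, SE 0.79), and its 3p arm changed by -0.36 (SE 0.193). The signal of mmu-miR-320-3p stayed below detection on all 6 arrays, with a change of 1.501 (SE 0.474, limma adjusted p = 0.0121) that lost its call without mouse 9 (limma adjusted p = 0.0743). For mmu-miR-484 the change was -0.40 (SE 0.225). Neither mmu-miR-6366 nor mmu-miR-5100 belongs to the list of miRNAs made without Drosha. The signal of mmu-miR-6366 rose from 108, 136 and 102 to 521, 1388 and 391 (change 2.04, SE 0.529, limma adjusted p = 0.00294), whereas mmu-miR-5100 gave 7.32, 5.40 and 3.57 at 0 U and 7.33, 7.65 and 4.29 at 0.67 U (change -0.23, SE 0.458). The direction of mmu-miR-6366 turned under quantile normalization and normexp, to -0.77 and -0.81.

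Full digestion was also set against partial digestion at 0.026 U, where the RIN was 7.0, 6.9 and 6.0 in mice 7, 10 and 9. By the descriptions, no miRNA was called in either direction by limma (0% of 631), and 9 had an unadjusted limma p under 0.05. The rank test cannot pass 0.05 with 3 arrays against 3, so it could give no call here. In mice 7 and 10 the total signal at 0.67 U was 2.22-fold and 4.64-fold that at 0.026 U, and each of the 139 and 143 raised miRNAs detected at both doses was brighter at 0.67 U. In mouse 9 the total at 0.67 U was 0.396 of that at 0.026 U, and none of the 197 such miRNAs was brighter at 0.67 U. The signal of mmu-miR-494-3p was 21307, 19763 and 105508 at 0.026 U, against 52249, 102286 and 42227 at 0.67 U.

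The 0.026 U array of mouse 9 stood apart from the others of its dose. Across the 631 miRNAs its Pearson correlation was 0.963 and 0.986 with the 0.67 U arrays of mice 7 and 10, and 0.882 and 0.880 with their 0.026 U arrays. The 0.67 U array of mouse 9 had 0.975 and 0.964 with the 0.67 U arrays and 0.946 and 0.942 with the 0.026 U arrays. Without mouse 9, 3 miRNAs (0.475%) were higher at 0.67 U than at 0.026 U, mmu-miR-711, mmu-miR-678 and mmu-miR-6982-5p, and 178 had an unadjusted p under 0.05. Of these, mmu-miR-711 was detected on the 0.67 U arrays, at 1.17 and 3.00 intensity units in mice 7 and 10, and the others were undetected there. With the groups taken from the titles, 29 (4.6%) were higher at 0.67 U than at 0.026 U, and against 0 U 302 were higher, 282 of them among the 283. The comparison with 0 U thus changed little with the label followed for mouse 9, and the comparison between doses changed with it.

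The miRNAs raised by digestion were compared with those raised in RNA that kept its small RNAs when tissue was stored for 96 h (3 arrays against 3 at 0 h, DNase-treated, no arrays shared with the RNase comparison). Storage raised 381 of the 631 miRNAs (60.4%), and 269 were raised in both, which is 95.1% of the 283 and 70.6% of the 381. This overlap is not independent of the filter, which stored arrays help a miRNA to pass. The 55 raised miRNAs undetected on all 6 compared arrays passed it through other arrays. The difference between both changes was tested in the same fit, and over all 631 miRNAs 139 (22%) rose more, or fell less, with digestion and 190 (30.1%) with storage. Which of these numbers was the larger depended on the scaling, with 116 and 299 under spike-in scaling, 141 and 136 at the 75th percentile of the miRNAs detected on all arrays, and 153 and 126 under quantile normalization. Without mouse 9 they were 110 and 161. Of the 269 shared miRNAs, 162 had no call for it, 98 rose more with storage and 9 more with digestion. The signal of mmu-miR-494-3p was 9695, 4728 and 10776 at 96 h, and its change of 2.47 with storage was 4.49 smaller than with digestion (SE 0.686, limma adjusted p = 3.06e-05), or 1.42 smaller when quantile normalized (limma adjusted p = 0.0408). For mmu-miR-652-5p the change with storage was 1.16, smaller by 5.57 (SE 0.646, limma adjusted p = 2.17e-06). Its signal was 27.0, 64.5 and 49.5 at 0 h, detected on all 3 arrays, and 351, 369 and 340 at 96 h. At 0 U it was below detection, so the changes with storage and digestion start from unlike levels.

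The residual miRNAs differed in the other sense. With storage mmu-let-7a-5p changed by -4.72, mmu-miR-122-5p by -3.08 and mmu-miR-21a-5p by -2.71, and with digestion by 0.05, 0.05 and 0.13 (differences 4.77, 3.14 and 2.85, largest limma adjusted p = 0.000814). The size of these falls rests on the scaling of the 96 h arrays. In mice 7, 10 and 9 the raw signal of mmu-let-7a-5p was 569, 941 and 850 at 0 h and 53.3, 346 and 57.4 at 96 h. For mmu-miR-122-5p it was 6767, 12125 and 11368, then 3030.5, 6117.4 and 3677.3. For mmu-miR-21a-5p it was 1542, 2452 and 2221, then 876, 1673 and 898. Under spike-in scaling the differences were 3.75, 2.09 and 1.82 in the same order. Under quantile normalization the difference for mmu-miR-122-5p was 0.62 and did not pass the test (limma adjusted p = 0.502). The signal of mmu-miR-6366 was lowered by storage (-3.36, or -1.99 under spike-in scaling) and raised by digestion. These changes also start from unlike levels. It went from 23166, 41140 and 37532 at 0 h to 10939, 14538 and 9274 at 96 h, against 108, 136 and 102 at 0 U. For mmu-miR-135a-1-3p, mmu-miR-5622-3p and mmu-miR-1224-5p the changes were 6.85, 5.27 and 4.25 with storage and 6.05, 5.32 and 4.36 with digestion, and these differences did not pass the test. Incubation and the second isolation without RNase, 0 U against untreated depleted RNA, gave 1 higher (0.158%) and 10 lower (1.58%) miRNAs. That comparison shares its 0 U arrays with the main one.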

How the data were processed

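RNA was labelled with Cyanine 3-pCp and hybridized to 1-colour Agilent mouse miRNA arrays. Per the file headers, the authors read them with Feature Extraction 10.10.1.1. The deposited intensity values had their background removed by that software and were on the scale of each scan, and a flag marks the miRNAs detected on an array. In a second deposited table the authors give log2 values after variance stabilizing normalization (vsn). Here a detected miRNA took its total gene signal, which counts only the probes detected on that array, and an undetected one the summed totals of its probes. The vsn method was rewritten in Python 3.11.15 and fitted on all 1881 miRNAs, giving glog2 values that differed from the deposited ones by 0.0956 (SD). The number of arrays, 3 per group, limits the precision. No probe sequence was used, and miRNA sequences came from RefSeq by name.

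The 8 group means of all 24 arrays were fitted with limma 3.58.1 in R 4.3.3 (empirical Bayes with a variance trend) on miRNAs detected on at least 5 arrays, and p-values were adjusted by Benjamini-Hochberg within each comparison. In simulated data of the comparison of 0.67 U with 0 U on 631 miRNAs, 64% of changes of 1.5 and 96% of changes of 3 were recovered. Single values per array were compared by two-sided exact permutation. The rank test in the study's methods cannot pass 0.05 with 3 arrays against 3.

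The animal number in the labels pairs the arrays of 1 mouse. After group means were removed, the 0.67 U and 0 U arrays of mice 7, 10 and 9 correlated by 0.313, 0.477 and 0.387 across miRNAs. The replicate block was tried as an alternative. Each mouse lay on 1 slide of its own, scanned on its own day, so mouse, slide and scan cannot be told apart.

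The named miRNAs were, by rule, the 10 largest increases detected on all 6 arrays, the 8 gained miRNAs with the largest lower bound, all lower calls and a fixed list of 8. For the marker, let-7, Drosha-independent and repeat lists, counts and the leading detected members are given. Seed and arm partners, base-composition exceptions and miRNAs called in alternative groupings were chosen after their values were seen. Members and lists were chosen with earlier results of these data known. The summing of all probes on every array, tests of both arms, of storage against digestion and of lists and guanine content under each setting were added after the data were seen. Figures were drawn with matplotlib 3.10.9.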

Additional observations from a re-analysis of the deposited data

Results flagged for a closer look

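Among the control features of the array design, outside the miRNAs, 2 had every signal at 0.67 U above every signal at 0 U. They were picked for this. The other control features read, hur_1, hur_2 and hur_4 among them, did not show it. The permutation tests below are not adjusted for the number of features. The feature listed as hur_6, whose target is not named in the files, had a mean spot signal of 2457, 2715 and 3534 intensity units at 0 U in mice 7, 10 and 9 and 3615, 4186 and 4844 at 0.67 U, a mean of 4215 ± 615 (SD, n = 3), above every 0 U array (two-sided p = 0.1 by exact permutation, the least possible). The feature mr_1 had 984, 1171 and 1048 at 0 U and 1217, 1352 and 1208 at 0.67 U, a mean of 1259 ± 80.4 (SD, n = 3), also above every 0 U array (two-sided exact permutation p = 0.1).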

How the results depend on the processing

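Among the changes of the 27 named miRNAs, 422 recomputed values kept their direction and side of the threshold, 33 lost the call, 3 gained one and 25 reversed, and the lower calls and the unchanged miRNAs depended most on the scaling. Against 0 U, 178 miRNAs were higher and 242 lower with vsn on the 631 miRNAs alone, 48 and 30 with normexp, and 0 and 0 with the rank test, whose smallest p of 0.1 cannot pass. Lower calls numbered 188 at the 75th percentile of the miRNAs detected on all arrays, 88 at that of all miRNAs, 162 under quantile normalization, 43 with no filter, 1 with no normalization, 1 with spike-in scaling, 1 with all probes summed on every array (an alternative chosen after the data were seen, with 288 higher), 1 when detection on all 3 arrays of a group was required, 0 with the 6 compared arrays alone and 1 to 2 with a mouse left out. With a mouse left out, 221 to 281 miRNAs were higher. The replicate block gave 287 higher and 3 lower, 282 of the higher ones shared with the fit without it, so that it changed no count of calls by over 1.5 times. Against 0.026 U, 29 miRNAs were higher by the titles and 0 to 3 with a mouse left out, 3 of them without mouse 9.

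The median change of 0.90 became 1.105 at the 75th percentile of all miRNAs, 0.19 under quantile normalization, 1.45 with no normalization, 1.37 with spike-in scaling, 0.00395 with normexp, 1.75 under the stricter filter and 1.14 by the titles, and turned to -0.51 with vsn on the 631 miRNAs and to -0.17 with no filter. The difference in detected miRNAs was 192 at a fixed detection level, and the log2 difference in total signal 2.25 without mmu-miR-494-3p. The excess in median GC content of 4.17 percentage points was 8.70 with no filter and 4.17 to 5.30 with a mouse left out.

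Directions turned for 6 named miRNAs. At the 75th percentile of detected miRNAs, that of all miRNAs, quantile normalization, vsn on the 631 miRNAs, normexp and by the titles, the change was -1.41, -0.90, -2.13, -0.96, -2.22 and -0.12 for mmu-miR-122-5p (-0.056 to 0.21 with a mouse left out), -1.41, -0.90, -2.13, -0.96, -2.25 and -0.12 for mmu-let-7a-5p (-0.035 to 0.16 with a mouse left out), and -1.31, -0.81, -1.73, -0.92, -1.03 and -0.045 for mmu-miR-21a-5p. For mmu-miR-6366 it was -0.77 with quantile normalization and -0.81 with normexp, for mmu-miR-320-3p -0.10 with vsn on the 631 miRNAs, and for mmu-miR-5100 0.25 with no normalization and 0.11 with spike-in scaling. The cause was not tested. Signals below the detection level, as in 55 of the raised miRNAs, limit what can be said of single names.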

Other observations

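Some miRNAs stood against the order by guanine content. In the lowest of the 4 classes, 9 miRNAs rose. Apart from mmu-miR-494-3p they include mmu-miR-1249-3p, which holds 4.55% guanine and is rich in cytosine (change 1.72, SE 0.363), mmu-miR-296-5p (change 1.68, SE 0.31) and 3 members of the repeat families, mmu-miR-466i-3p, mmu-miR-466q and mmu-miR-467f. In the highest, 6 had no call, of which mmu-miR-2137 (52.4% guanine, change 0.73, SE 0.481) and mmu-miR-7002-5p (47.6%, change 0.82, SE 0.429) were detected on all 6 arrays.

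There were 14 miRNAs called higher with digestion and not called higher with storage. The missing call with storage rests on the scaling of the 96 h arrays, since the raw signal of 12 of the 14 was higher at 96 h than at 0 h in every mouse, and 10 were called higher with storage under spike-in scaling. Among the 14, mmu-miR-295-5p rose from below detection to 6.82, 19.5 and 8.82 intensity units at 0.67 U (change 5.60, against -0.38 with storage, difference 5.99, SE 1.05, limma adjusted p = 0.000106), and mmu-miR-7058-5p rose from 6.03, 13.0 and 5.45 to 121, 305 and 138 (change 3.90, against 0.20, difference 3.70, SE 0.64, limma adjusted p = 9.87e-05). For mmu-miR-7058-5p the raw signal in RNA with its small RNAs was 6.19, 7.11 and 6.82 at 0 h and 25.2, 24.8 and 37.3 at 96 h, and the change with storage under spike-in scaling was 1.64. These were chosen after their values were seen.

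The spike-in controls had mean spot signals whose groups lay close together. For dmr_3 it was 10948 ± 463 (SD, n = 3) without RNase and 10770 ± 564 (SD, n = 3) after digestion, and for dmr_6 it was 7565 ± 261 and 7548 ± 388 in the same order. The total signals of the spike-ins, which the scaling uses, differed more. For the 4 spike-ins the mean was 0.13 to 0.18 higher on the log2 scale at 0.67 U (two-sided exact permutation p between 0.6 and 0.9), with the largest differences within a mouse between 0.46 and 0.55.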
